A study of Mus musculus with 4 samples.

Results

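Open chromatin outside genes but near a gene start was described in chondrocytes, the cells of cartilage, from mouse rib. A member of the set was an interval of the WT ATAC-Seq peak list on an autosome that overlapped an interval of the deletion list by at least 1 bp. Its WT summit also had to lie outside every protein-coding gene body and more than 1 kb, but at most 50 kb, from the nearest start of a protein-coding transcript. Of 88965 autosomal WT peaks, 85396 overlapped a deletion peak, and 18688 of these were members (21.9%). Members were thus chosen by the WT and deletion peak calls, and their fold enrichments are given below as a description with no test. The other shared peaks were 29867 intronic peaks, 19283 within 1 kb of a start, 15214 intergenic peaks beyond 50 kb and 2344 exonic peaks.

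Libraries of 3 groups were used. WT and E160(delta/delta);E308(delta/delta), called the deletion, were rib chondrocytes of wild-type mice and of littermates homozygous for deletions of both E160 and E308, elements far upstream of Sox9. Cho rep1 was a library of primary chondrocytes from rib cartilage of newborn mice, with no genotype in its label, and took no part in the rule. Each of the 3 was 1 library, so every difference compares libraries and not genotypes. How many animals were pooled is not given in the sources used here. Cho rep2 is not analysed here, because its positions belong to another genome build. The WT list held 90971 peaks, the deletion list 169591 and the Cho rep1 list 76242 intervals. The commonest background pileup per base was 0.361, 0.626 and 1.37, which alone does not rank the libraries by depth. The lists also differed in form: the shortest interval was 78 bp in WT, 72 bp in the deletion and 200 bp in Cho rep1. The lowest pileup was 4, 4 and 6. The part of these differences in the Cho rep1 overlaps and heights below was not tested. Promoter peaks were checked against marker genes. WT had a peak within 1 kb of a start for 38 of 42 cartilage transcription factors, 23 of 31 cartilage matrix genes and 17 of 17 housekeeping genes, against 3 of 22 skeletal muscle genes, 4 of 25 epithelial genes and 8 of 26 genes of blood and endothelium. The deletion had such a peak for 42, 27 and 17 of the first 3 lists and for 10 muscle, 10 epithelial and 9 blood and endothelial genes, and Cho rep1 for 39, 15 and 17 and for 2, 4 and 7. Nervous system genes had a promoter peak in 12 of 20 in WT, 14 in the deletion and 12 in Cho rep1. Osteoblast and fibroblast genes had one in 22 of 25 in WT, 24 in the deletion and 17 in Cho rep1. Over all 21281 autosomal protein-coding genes the counts were 13309, 14506 and 12610. These promoter peaks thus do not set cartilage apart from bone and fibroblast genes, and the part of other cell types in the results below was not tested.

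Enhancers are stretches of DNA outside the promoter to which transcription factors bind, and they lose nucleosomes when occupied. ATAC-Seq reads such open DNA through the insertion of adapters by the Tn5 transposase. AP-1, a dimer of Fos and Jun proteins, is a common factor at distal enhancers of mesenchymal cells. CTCF marks the anchors of chromatin loops and often binds between genes.

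The sequences that carry the findings are printed here, each 101 bases long and centred on the WT summit, on the plus strand of NCBIM37 (mm9). Capitals mark matches to the CTCF core motif or to the AP-1, Runx, Sox, TEAD or ETS letters given below, and the other motifs searched are not marked. The first is the member inside E308, which was 41.8 kb upstream of the start of Gm11678 at chr11:112334701-112334801 and held a Runx match.
E308 (Gm11678): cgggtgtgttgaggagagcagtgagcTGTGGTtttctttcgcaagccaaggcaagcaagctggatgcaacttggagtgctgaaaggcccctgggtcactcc
Members with an AP-1 match follow, at chr13:5836785-5836885 upstream of Klf6, chr9:63641635-63641735 upstream of Smad3, chr8:26576159-26576259 upstream of Fgfr1, and chr5:143682576-143682676 upstream of Actb, which also held a Runx match.
Klf6: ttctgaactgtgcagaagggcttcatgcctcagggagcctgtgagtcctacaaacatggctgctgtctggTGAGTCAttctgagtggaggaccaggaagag
Smad3: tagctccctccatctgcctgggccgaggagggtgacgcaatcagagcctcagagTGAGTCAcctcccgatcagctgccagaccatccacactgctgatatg
Fgfr1: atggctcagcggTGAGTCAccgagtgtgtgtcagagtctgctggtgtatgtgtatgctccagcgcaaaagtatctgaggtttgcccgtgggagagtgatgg
Actb: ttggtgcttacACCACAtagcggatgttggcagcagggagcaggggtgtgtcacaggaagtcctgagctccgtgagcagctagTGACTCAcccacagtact
Near cartilage and patterning genes the matches differed. The Shh member at chr5:28777860-28777960 held a CTCF match, the Gas1 member at chr13:60294792-60294892 held a pair of Runx matches and the Dlx6 member at chr6:6780569-6780669 a TEAD match. The Hapln1 member at chr13:89661148-89661248 held none of the motifs searched.
Shh: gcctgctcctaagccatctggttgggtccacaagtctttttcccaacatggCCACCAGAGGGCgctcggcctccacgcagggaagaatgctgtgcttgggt
Gas1: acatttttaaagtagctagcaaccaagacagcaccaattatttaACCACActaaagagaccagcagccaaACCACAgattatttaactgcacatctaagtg
Dlx6: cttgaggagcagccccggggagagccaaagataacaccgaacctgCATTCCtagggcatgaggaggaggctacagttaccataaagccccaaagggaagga
Hapln1: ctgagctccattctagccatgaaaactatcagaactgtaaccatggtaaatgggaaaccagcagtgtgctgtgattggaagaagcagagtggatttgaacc
The last 4 are shown because of extreme values. Those near Fbxo33 and Abcb11 were among the highest in WT fold enrichment. Those near Mog and Iyd were among the highest in the ratio of deletion to WT. The 4 lie at chr12:60363963-60364063 (Fbxo33), chr2:69193607-69193707 (Abcb11), chr17:37165319-37165419 (Mog) and chr10:6823573-6823673 (Iyd).
Fbxo33: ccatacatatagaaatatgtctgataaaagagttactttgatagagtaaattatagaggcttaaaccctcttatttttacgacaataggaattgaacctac
Abcb11: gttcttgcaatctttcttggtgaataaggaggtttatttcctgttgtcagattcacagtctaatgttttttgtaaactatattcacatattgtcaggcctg
Mog: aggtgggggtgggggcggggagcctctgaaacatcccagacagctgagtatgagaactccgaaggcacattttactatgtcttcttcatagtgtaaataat
Iyd: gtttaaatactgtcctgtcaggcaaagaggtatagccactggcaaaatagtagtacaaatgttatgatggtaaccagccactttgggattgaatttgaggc

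Members lay throughout the 1 to 50 kb range. Their median distance to a start was 17.0 kb, with quartiles of 8.01 and 29.9 kb. Upstream members were 12959 of 18688 (69.3%), and upstream sequence was 69.4% of the intergenic sequence that could hold a member. Density was 36.8 members per Mb of such sequence upstream of a start and 36.9 downstream. Upstream it was highest at 1 to 2 kb, with 46.0 per Mb, and lowest at 2 to 5 kb, with 33.9 per Mb. It stood at 39.6 per Mb at 5 to 10 kb and at 34.4 per Mb at 40 to 50 kb. Downstream it was lowest at 1 to 2 kb, with 20.1 per Mb from 48 members, and highest at 10 to 20 kb, with 41.4 per Mb. At the inner limit, the Nxn member lay 1001 bp from its start (fold enrichment 5.81 in WT and 5.76 in the deletion). A peak 1000 bp from Ctps, at 4.44 and 6.10, was not a member. At the outer limit, the 1700067P10Rik member lay 49999 bp away (10.7 and 17.9), and a peak 50007 bp from Fam46c (6.62 and 8.61) fell outside.

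**Figure D1:**
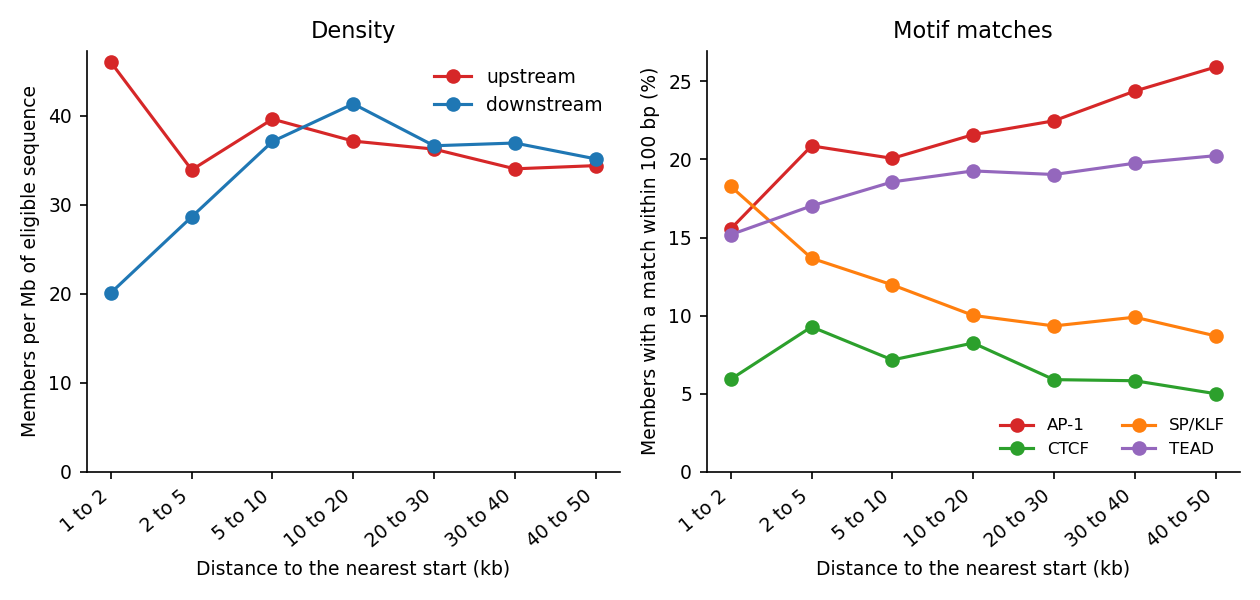
Left, members per Mb of eligible intergenic sequence by distance to the nearest protein-coding start (kb), upstream and downstream. Right, the percent of members with an AP-1, CTCF, SP/KLF or TEAD match within 100 bp of the summit in the same distance bins. AP-1 matches went from 15.6% to 25.9% of members and SP/KLF matches from 18.3% to 8.70%.

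Fold enrichment, the summit pileup over the local background with 1 added to both, had a median of 6.803 over members in WT and of 9.23 in the deletion. The WT quartiles were 5.15 and 9.56, and those of the deletion 6.76 and 12.4. The WT median was 6.62 over intronic peaks and also 6.62 over intergenic peaks beyond 50 kb, and 9.29 within 1 kb of a start. Members held a median WT pileup of 11 fragments and a median deletion pileup of 21. Single values near the median therefore carry large counting error.

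The median log2 ratio of fold enrichment, deletion to WT, was 0.30 over members, with quartiles of 0.03 and 0.62. Over all shared peaks it was 0.27. The ratio was 1 or more for 1374 members (7.35%), where 7.75% of all shared peaks reached it, and -1 or less for 10 members (0.0535%), where 0.0726% of all shared peaks did. Both shares of members were near those of all shared peaks. In bulk libraries, fewer cells with an open site and less opening per cell cannot be told apart. When each summit pileup was divided by the commonest background of its library, the median log2 ratio over members was 0.01, and 3.17% of members had a ratio of 1 or more and 1.57% of -1 or less. Among members with at least 20 WT fragments, 0.166% had a fold enrichment ratio of 1 or more. The ratio also moved with WT height: its median was 0.48 at a WT fold enrichment of 4 to 5, 0.33 at 6 to 8, 0.13 at 12 to 15 and -0.02 at 20 to 25. Of 2525 members at 4 to 5, 17.3% had a ratio of 1 or more, against 0.134% of 1491 members at 12 to 15. The median scaled log2 ratio moved likewise, from 0.26 at 4 to 5 to -0.17 at 12 to 15 and -0.76 at 30 or more.

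**Figure D2:**
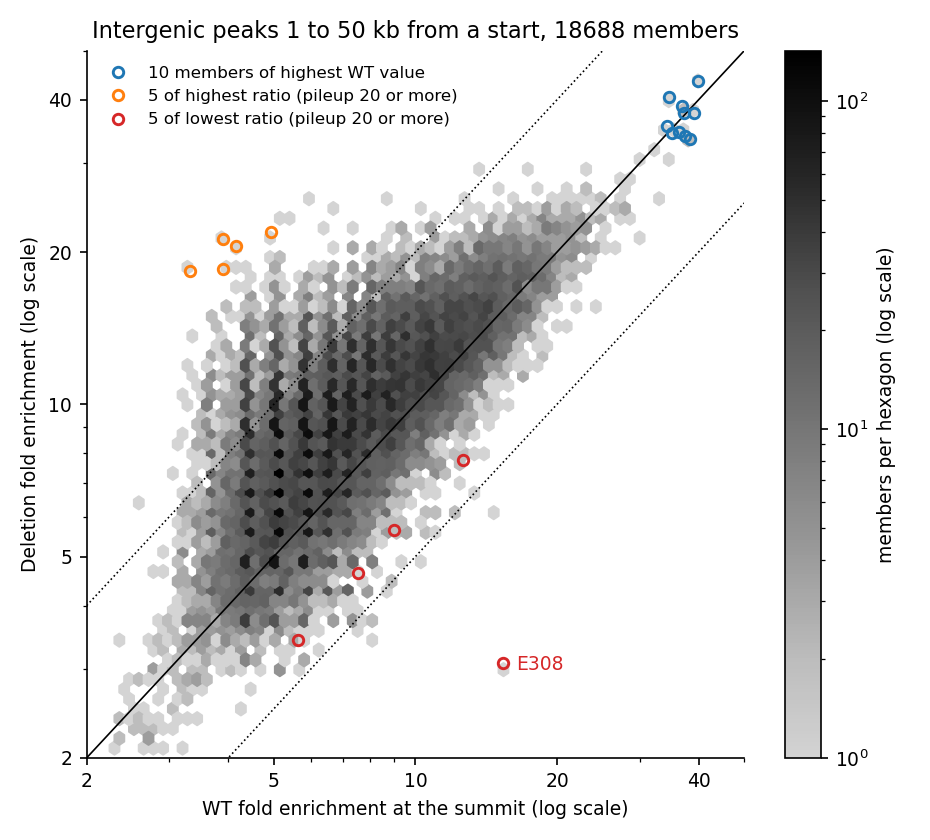
Fold enrichment of all 18688 members in WT (x axis) and the deletion (y axis), both on log scales; grey shows members per hexagon, the solid line equality, and the dotted lines log2 ratios of 1 and -1. E308 stands alone at 15.4 in WT and 3.07 in the deletion, and the 10 strongest members lie close to the line of equality.

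The lowest ratio belonged to the deleted element itself. The WT interval chr11:112334638-112334879 lies within E308, an enhancer of Sox9, the master regulator of chondrocyte fate. Its fold enrichment was 15.4 in WT, 23.2 in Cho rep1 and 3.07 in the deletion, and its pileup was 26 fragments in WT and 4 in the deletion, the lowest pileup in either list. The deletion peak, at chr11:112334735-112334858, lies inside the element that both alleles of this genotype lack by label, and the source of its 4 fragments was not tested. The log2 ratio was -2.32. After scaling to background the deletion stood at 0.0886 of WT, with a 95% interval of 0.0225 to 0.255 that covers counting error only. The next lowest ratio of any member was -1.26. The 9 others at -1 or less had WT pileups of 10 to 19 fragments. None of them overlapped a Cho rep1 peak, where 52.2% of all members did, and 57.1% of those at a WT fold enrichment of 8 to 10. These 9 were chosen by this ratio, which favours high WT and low deletion values, so the count is a description only. The sequence around the summit near Abra, 1 of the 9, had more than 1 placement in the genome at 95% identity or more. E160 gave no member, since its WT peaks lay beyond 50 kb of any start and overlapped no deletion peak.

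Among members with at least 20 fragments in either library, the next 4 lowest ratios were smaller. The member 1.105 kb upstream of Fzd2, a Wnt receptor, had 5.62 in WT, 3.43 in the deletion and 4.22 in Cho rep1 (ratio -0.71). The Rai14 member had 12.6 and 7.74 (-0.71) and the Gm17296 member 7.55 and 4.63 (-0.71), and the Rin1 member went from 9.01 to 5.64 (-0.68). The scaled intervals of Fzd2 and Rin1 included 1, at 0.276 to 1.08 and 0.421 to 1.39. That of Rai14 was 0.206 to 0.835 and that of Gm17296 was 0.255 to 0.855. These members were picked for low ratios from 10049, and the intervals cover counting error only. They make no allowance for that choice, so an interval below 1 is not support for a loss.

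The 5 highest ratios were at low WT peaks. The member 5.03 kb upstream of Mog, a gene for a myelin protein, had 3.31 in WT, 18.3 in the deletion and 21.1 in Cho rep1, with pileups of 6 and 51. Its scaled pileup in the deletion was 4.89 times that of WT (95% interval 2.10 to 14.0). The member 17.3 kb upstream of Iyd, which recovers iodide in the thyroid, had 3.90 in WT, 21.3 in the deletion and no Cho rep1 peak. Members near Srpk2 (4.15 and 20.5), 4930431F12Rik (3.90 and 18.5) and Lrrc39 (4.93 and 21.9) overlapped Cho rep1 peaks of 18.6, 9.71 and 8.87. These members were chosen by this ratio, which favours low WT values. Their WT pileups were 5 to 8 fragments, so all 5 met the minimum of 20 only through the deletion. The interval given for Mog makes no allowance for that choice and is not support for a difference.

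Cho rep1 overlapped 9753 members (52.2%, 95% exact binomial interval 51.5 to 52.9, counting error only), where 59.6% of all shared peaks overlapped it. The share was 52.0% for intronic peaks, 50.6% (49.8 to 51.4) for intergenic peaks beyond 50 kb and 86.7% within 1 kb of a start. Members 1 to 2 kb from a start overlapped in 65.9% (62.5 to 69.2), those at 10 to 20 kb in 49.0% (47.6 to 50.4) and those at 40 to 50 kb in 53.4% (51.2 to 55.6). The share went with the height of the WT peak. It was 38.8% (37.2 to 40.3) at a fold enrichment of 5 to 6, 57.1% (55.2 to 58.9) at 8 to 10 and 85.5% (82.8 to 88.0) at 15 to 20. Above this it was lower, with 79.8% (71.1 to 86.9) of 109 members at 20 to 25, 8 of 16 at 25 to 30 and 2 of 15 at 30 or more. Intronic peaks gave 86.3% at 15 to 20 and 3 of 14 at 30 or more, and intergenic peaks beyond 50 kb gave 83.5% and 2 of 12. Where members did overlap Cho rep1, the heights in WT and Cho rep1 were weakly related across members (Spearman rho 0.20), and over the same members rho was 0.72 for WT and the deletion. These are descriptions across peaks of single libraries, and the rule required a peak in both WT and the deletion. The Cho rep1 list also had a longer shortest interval and a higher lowest pileup, and the part of this in both values was not tested.

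**Figure D3:**
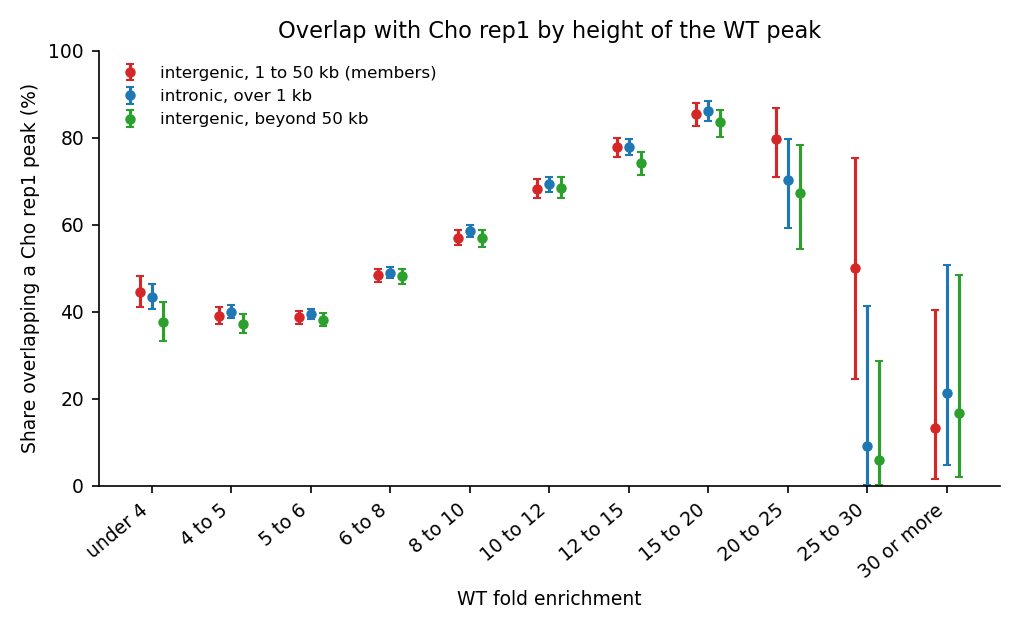
Share of peaks (%) that overlapped a Cho rep1 peak, by WT fold enrichment, for members, intronic peaks and intergenic peaks beyond 50 kb. Bars are 95% exact binomial intervals, which cover counting error only; the members climb to 85.5% at 15 to 20 and stand at 13.3% at 30 or more.

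The strongest members were unlike the rest. The 10 highest, 1 per nearest gene, had a WT fold enrichment of 34.2 to 39.9 and a deletion fold enrichment of 33.4 to 43.6. After scaling to background, the median log2 ratio of members at 30 or more was -0.76. The top member, 39.6 kb upstream of Mex3c on chromosome 18, lay in n-R5-8s1, an annotated ribosomal RNA gene, and had 39.9 in WT and 43.6 in the deletion. The Fbxo33 member printed above had 39.2 and 37.6, the Hic2 member 37.4 and 33.9, the Galntl4 member 36.9 and 39.0, and the Cd209a member 35.1 and 34.4. Igf2bp3 (37.3 and 37.7) and Chrm3 (34.2 and 35.5) were the nearest genes of members whose window had 3 placements in the genome at 95% identity or more. The 2610002I17Rik member had 34.5 and 40.5. The Abcb11 member (38.4 and 33.4), the sole member of the 10 with a Cho rep1 peak (18.6), shared 61.5% of its 15-base words with the mitochondrial genome. The Gm9631 member had 36.4 and 34.5.

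Across the 31 members with a WT fold enrichment of 25 or more, the log2 ratio ran from -0.52 to 0.23, 10 overlapped Cho rep1, 1 held an AP-1 match and 0 held a CTCF match. Of all members, 3.87% had more than 1 genome placement. Placements miss some kinds of repeated sequence, and a search for exact words can miss diverged copies of the mitochondrial genome. The repeat content of the strongest members is not reported in full here, and its part in their heights was not tested.

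Sequence at the summit set apart subsets of members. In the 100 bp on each side of the WT summit, AP-1 (TGANTCA, both strands) was found in 4115 members (22.0%, 21.4 to 22.6). It was in 24.9% of intronic peaks, 26.5% of intergenic peaks beyond 50 kb, 5.31% of promoter peaks and 19.9% of all shared peaks, and in 6.03% of windows 2 kb from the members. CTCF, searched as its core motif, was found in 6.95% of members (6.59 to 7.32), 4.32% of intronic peaks, 3.01% of intergenic peaks beyond 50 kb and 0.177% of the windows 2 kb away. All shared peaks held it in 4.01%. SP/KLF (GGGCGG) was in 10.8% of members, 7.70% of intronic peaks and 54.0% of promoter peaks. Runx (TGTGGT) was in 21.5% of members and 15.7% of windows 2 kb away, TEAD (GGAATG) in 18.9% and 10.8%, and the NFI site TTGGCA in 17.0% and 9.48%. ETS (CCGGAAG) was in 2.05% of members and 11.2% of promoter peaks, and CRE (TGACGTCA) in 0.594% and 2.13%. The Sox letters AACAAT or AACAAAG went the other way, with 8.81% of members against 14.5% of windows 2 kb away. The other classes did likewise, at 9.37% and 15.1% for intronic peaks, 10.8% and 17.5% for intergenic peaks beyond 50 kb and 4.16% and 14.7% for promoter peaks, and all shared peaks held these letters in 8.24%. These were matches to letters, not measured binding, and no motif contains another.

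**Figure D4:**
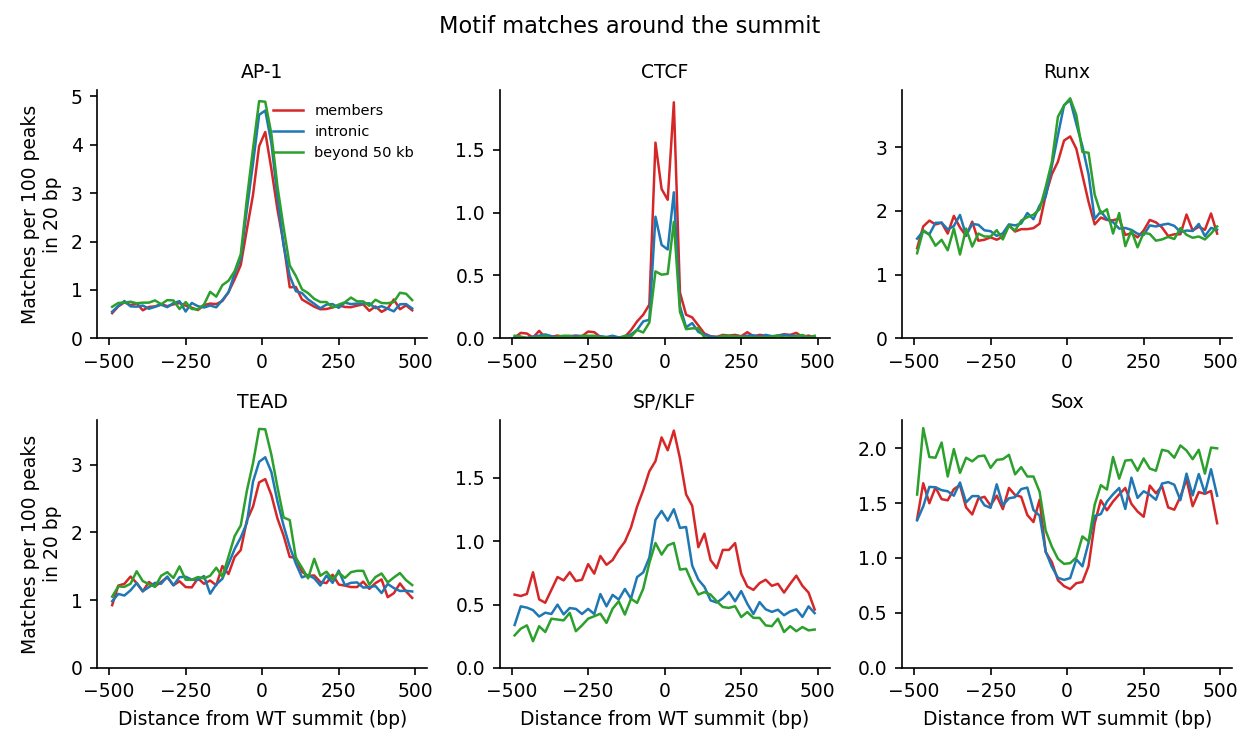
Motif matches per 100 peaks in 20 bp bins from 500 bp before to 500 bp after the WT summit, for members, intronic peaks and intergenic peaks beyond 50 kb. AP-1 reached 4.12 matches per 100 members at the centre against 0.653 at the edges, and Sox letters fell to 0.730 against 1.53.

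Members with an AP-1 match overlapped Cho rep1 in 72.8% (71.4 to 74.1), against 46.4% (45.6 to 47.2) of members without. The difference was present at each WT height under 25: 59.4% against 33.0% at a fold enrichment of 5 to 6, 76.0% against 51.5% at 8 to 10, and 96.6% against 81.3% at 15 to 20. The median log2 ratio, deletion to WT, was 0.43 with AP-1 and 0.27 without, and it was 0.61 against 0.41 at 5 to 6 and 0.10 against 0.03 at 15 to 20. A ratio of 1 or more was found in 12.1% of members with AP-1 and in 6.02% without. Members with a CTCF match overlapped Cho rep1 in 39.99% (37.3 to 42.7), against 53.1% (52.4 to 53.8) without, and the median Cho rep1 fold enrichment of those that did was 5.07 against 8.02. At a WT fold enrichment of 8 to 10 the shares were 42.6% with CTCF and 58.5% without. Both kinds of member had similar WT medians, 7.20 with AP-1 and 7.35 with CTCF. Matches also differed with distance. AP-1 was in 15.6% of members at 1 to 2 kb and in 25.9% at 40 to 50 kb, SP/KLF in 18.3% and 8.70%, and GC content was 54.1% and 49.8%.

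Members were spread over many genes. They had 8201 nearest genes, 38.5% of the 21281 autosomal protein-coding gene symbols, of which 3744 had 1 member, 881 had at least 5 and 61 at least 10. The median was 2. Most members, 16 each, lay nearest to 6430527G18Rik and BC107364, and 15 nearest to Zfp184. Atg7, needed to form autophagosomes, Fos, the AP-1 subunit, Cyr61, a secreted matrix protein induced by growth factors, and Socs3, an inhibitor of cytokine signalling, had 14 each. Abt1, Gm16382, Pard6b and Wnt7b had 13 each. Members near Cyr61 overlapped Cho rep1 in 14 of 14 and those near Zfp184 in 15 of 15. Those near Atg7, whose WT fold enrichment reached 6.73, did so in 0 of 14. All 14 Atg7 windows had more than 1 genome placement, from 7 to 118. Around Fos, 10 of 14 overlapped, over 89.2 kb, with WT values of 2.397 to 13.03. Non-coding genes of any kind held 1204 members (6.44%), and 624 of these were in lincRNA genes.

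Cartilage matrix genes, the collagens, aggrecan and link proteins of the tissue, had 71 members near 19 of 31 genes. Their WT median was 7.35 and their median log2 ratio 0.29. The ratio was 1 or more for 5 (7.04%), beside 7.75% of all shared peaks, and -1 or less for 0, beside 0.0726%. Of the 71, 26 (36.6%, 25.5 to 48.9) overlapped Cho rep1, where 52.2% of all members did. The strongest, 32.0 kb upstream of Prelp, a leucine-rich matrix protein, had 15.4 in WT, 13.9 in the deletion and 15.2 in Cho rep1. The member upstream of Hapln1, which links aggrecan to hyaluronan, had 13.7, 19.3 and 13.1. The members of Ucma (13.3 and 14.8) and Cilp2 (13.3 and 12.5) had no Cho rep1 peak.

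Col2a1, Acan, Comp and Sox9, outside the naming rule and singled out after their values were seen because they define the cell type, had 7, 3, 3 and 2 members. Around Col2a1, the main collagen of cartilage, the members lay 4.24 to 28.8 kb upstream, and 2 of 7 overlapped Cho rep1. Their log2 ratios ran from -0.23 to 0.18. Both ends of this range came from adjacent WT peaks (7.26 and 5.46) matched to the same deletion peak (6.17), so they are not separate deletion values. The Acan members had 7.35, 4.46 and 11.3 in WT and 14.1, 9.99 and 11.6 in the deletion, and none overlapped Cho rep1. All 3 lay in Gm16936, a non-coding gene. The Sox9 members, 49.5 kb upstream in BC006965 and 3.75 kb downstream of the start, had 5.88 and 5.01 in WT and 6.76 and 5.66 in the deletion.

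Cartilage transcription factors had 106 members near 32 of 42 genes. Of these members, 61 (57.5%, 47.6 to 67.1) overlapped Cho rep1, beside 52.2% of all members. A further count, those with a ratio of 1 or more, was 8 (7.55%), near the 7.75% of all shared peaks. Runx3, a regulator of chondrocyte maturation, had a member at 16.7 in WT, 17.1 in the deletion and 13.5 in Cho rep1, Dlx6 at 16.3, 18.4 and 24.9, and Mef2d at 15.7, 13.9 and 20.7. The scaled intervals of these 3 included 1, from 0.507 to 1.05 for Mef2d and from 0.617 to 1.45 for Dlx6.

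AP-1 and immediate early genes, which growth factors and stress induce within minutes, had 103 members near 23 of 26 genes, or 3.96 per gene. The 14 lists ran from 1.12 per gene for epithelium and for blood and endothelium to 4.76 for osteoblast and fibroblast genes, all above the 0.878 over all genes. Of these, 80 (77.7%, 68.4 to 85.3) overlapped Cho rep1, and the median log2 ratio was 0.07. The Klf6 member printed above had 18.9 in WT, 23.5 in the deletion and 35.5 in Cho rep1. The Myc member, with a pair of AP-1 matches, had 14.99, 14.96 and 17.7, and the Nr4a1 member 14.5, 10.6 and 30.0. The scaled interval of Nr4a1, 0.445 to 0.940, excluded 1. At a WT fold enrichment of 12 to 15, however, the median scaled log2 ratio over members was -0.17. The value 1 was thus not the middle of members at this height. Batf3 had a member at 24.8 and 25.7 with no Cho rep1 peak. As for the strongest members, the repeat content of this one is not reported in full here.

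Hedgehog and PTHrP genes, which pace chondrocyte maturation in the growth plate, had 24 members near 9 of 15 genes. Cho rep1 overlapped 13 of the 24 (54.2%), beside 52.2% of all members. The Gas1 member had 15.001 in WT, 17.0 in the deletion and 3.80 in Cho rep1, the Pth1r member 11.0, 10.8 and 5.49, and the Gli3 member 10.9, 13.7 and 2.96. The Shh member, with its CTCF match, had 8.63 and 10.5 and no Cho rep1 peak. BMP and TGF-beta genes had 101 members near 27 of 42 genes, and 63 (62.4%, 52.2 to 71.8) overlapped Cho rep1. The Smad3 member, with the AP-1 match printed above, had 20.96, 23.03 and 5.07, Tgfb2 20.05, 19.3 and 11.0, Smad5 16.9, 16.4 and 32.9, and Tgfbr2 15.1, 12.97 and 7.60.

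FGF genes had 50 members, and 26 (52%) overlapped Cho rep1, beside 52.2% of all members. They were led by Etv4 at 14.8 in WT, 13.2 in the deletion and 3.80 in Cho rep1 and by Fgfr1, the receptor, at 14.8, 15.9 and 35.5. Wnt genes had 95 members near 35 of 39 genes (51 in Cho rep1, 53.7%), led by Wnt7a at 18.6, 17.5 and 7.18. Matrix proteases and their inhibitors had 56 (33 in Cho rep1, 58.9%), led by Mmp19 at 17.6, 18.3 and 31.2. Osteoblast and fibroblast genes had 119, the most of any list, near 20 of 25 genes, and 71 (59.7%, 50.3 to 68.6) overlapped Cho rep1. Their strongest was near Sparc, a collagen-binding protein of bone, at 17.9, 22.0 and 10.1.

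Lists for skeletal muscle, blood and endothelium, epithelium and the nervous system had 28 to 29 members each. In Cho rep1 were 12 of 29 (41.4%, 23.5 to 61.1) for skeletal muscle and 20 of 29 (69.0%, 49.2 to 84.7) for blood and endothelium. For epithelium they were 11 of 28 (39.3%, 21.5 to 59.4) and for the nervous system 17 of 28 (60.7%, 40.6 to 78.5). All 4 intervals included the 52.2% of all members. Among named members near blood and endothelial genes, Cd34 had 14.2 in WT, 11.8 in the deletion and 17.3 in Cho rep1, Tal1 11.8, 12.6 and 5.49, Kdr, the VEGF receptor, 11.0, 18.002 and 58.7, and Erg 10.5, 10.8 and 8.02. The scaled intervals of all 4 included 1. Housekeeping genes had 28 members near 7 of 17 genes, of which 24 (85.7%, 67.3 to 96.0) overlapped Cho rep1, and their median log2 ratio was 0.05. The Actb member 14.2 kb upstream had 21.9, 20.01 and 35.5. Over the 14 lists, members with a ratio of -1 or less numbered 0 in each, and those with a ratio of 1 or more were 3.57% to 10.3% of a list, beside the 7.75% of all shared peaks.

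**Figure D5:**
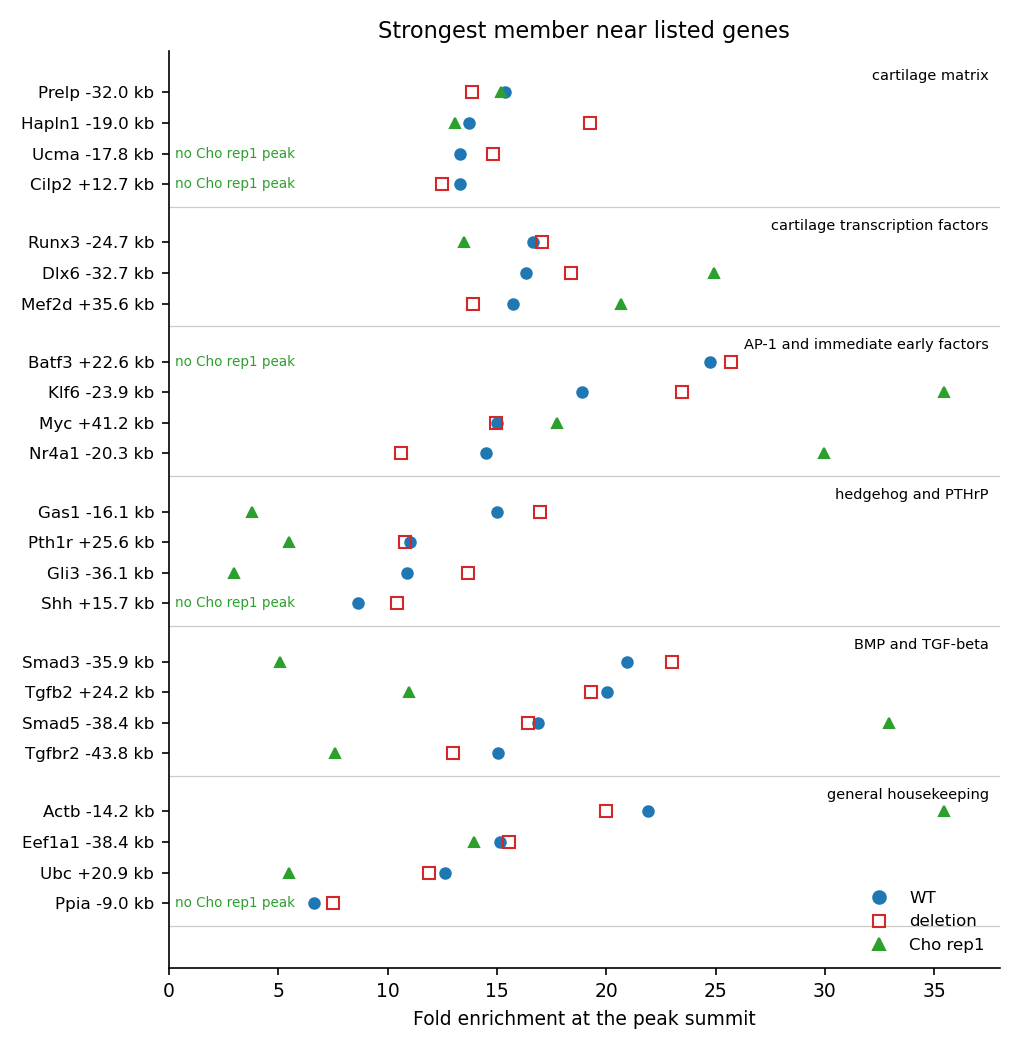
Fold enrichment at the summit of the strongest member near up to 4 genes in each of 6 lists, in WT (circles), the deletion (open squares) and Cho rep1 (triangles), with the signed distance to the start in kb. WT and deletion values lie closest for Myc at 14.99 and 14.96 and farthest apart in ratio for Hapln1 at 13.7 and 19.3 and for Nr4a1 at 14.5 and 10.6, and Cho rep1 values spread widely, from 2.96 for Gli3 to 35.5 for Klf6 and Actb.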

How the data were processed

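ATAC-Seq peak lists of Cho rep1, WT and the deletion were analysed, 1 library each, with groups taken from the labels. Per the study methods, the authors filtered reads with fastp, aligned them to mm9 with Bowtie2, removed duplicates with Picard and ran MACS2 for peaks with its q-value limit of 0.05. The submitters' processing notes give Bowtie2 2.4.4, SAMtools 1.9 and MACS2 2.2.4. Each deposited fold is the pileup at the summit plus 1, divided by the local background plus 1, within its own library. The authors also gave the −log10 of the p-value and of the q-value. Heights are not scaled between libraries and move with depth and background, and read totals are not given in the sources used here.

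The members and gene lists were chosen with earlier results of these data known. Gene positions were those of GENCODE M1 on NCBIM37, the build of mm9. A start was that of any protein-coding transcript. Where several deletion peaks overlapped a WT peak (97 members), the longest overlap was used, and of each Cho rep1 interval the strongest summit. A deletion peak could be matched to more than 1 WT peak. Pileups were solved from that fold and the p-value with the Poisson tail that MACS2 uses, to a relative tolerance of 0.0001, and were checked on simulated peaks. Scaled pileup is the pileup over the commonest background of its library. With 1 library per genotype no test across libraries was made, and intervals (95% exact) cover counting error only, since fragments are not all independent molecules.

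Named members were the 10 of highest WT fold enrichment, the 5 highest and 5 lowest ratios at a pileup of at least 20, the genes with most members (ties included), up to 4 genes per list and the members at the distance limits. Sequences were read from NCBIM37 with pysam 0.24.0, and placements counted with minimap2 2.31 at 95% identity over 80% of the window. The 14 gene lists cover cartilage matrix, cartilage transcription factors, AP-1 and immediate early factors, hedgehog and PTHrP, BMP and TGF-beta, FGF, Wnt, matrix proteases, osteoblast and fibroblast, skeletal muscle, blood and endothelium, epithelium, nervous system and housekeeping genes. Placements, mitochondrial words and the B-box search were chosen after the data were seen. Python 3.11.15, pandas 2.3.3 and scipy 1.17.1 were used. Cho rep2 and repeat annotation were not used here, and a few members that met the naming rule are not reported here.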

Additional observations from a re-analysis of the deposited data

How the results depend on the processing

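There were 53 alternatives to 6 results. Only the median log2 ratio could change direction, since the other results are counts and shares, and it stayed above 0 under its 10 alternatives. The number of members stayed within 1.5 times of 18688, from 12501 with an outer limit of 25 kb to 24627 with 100 kb. The share of shared peaks that were members (21.9%) became 14.6% and 28.8% at those limits, 21.6% with a −log10 q of at least 5 in each library, 21.4% from the 5 prime end of genes alone and 20.5% outside genes of any biotype. The median log2 ratio (0.30) was 0.26 at that q, 0.37 with equal numbers of peaks, 0.29 and 0.33 with limits of 25 and 100 kb, 0.011 with scaled pileup and 0.024 in members with at least 20 WT fragments. The share with a ratio of 1 or more (7.35%) was 3.84% at that q, 8.63% with equal numbers, 6.88% at 25 kb, 3.17% with scaled pileup and 0.166% with at least 20 fragments. The share at -1 or less (0.0535%) was 0.0146% at that q, 0% with equal numbers and 1.57% with scaled pileup. The Cho rep1 share (52.2%) was 47.1% at that q, 57.2% with equal numbers, 50.5% when 50% of the WT peak had to overlap and 50.4% when the WT summit had to lie inside the Cho rep1 interval. Of the other 30 values, 23 stayed within the 95% interval of the first, and 7 were the numbers of members, which have no interval. The cause of these shifts was not tested beyond what each alternative changes. No paired analysis was possible because each genotype compared has a lone library, which leaves no pairs to match. Depth limits single ratios, since a median member had 11 WT fragments.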

Other observations

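Members near some genes were copies of one another, a pattern looked for after the counts per gene were seen. The 14 members upstream of Atg7 on chromosome 6 lay in a ladder. Of the 13 gaps between adjacent summits, 10 were 2402 to 2509 bp long, and the longest was 7406 bp. In each of the 14, at least 50% of the 15-base words of its window recurred in the window of another Atg7 member, with a median of 89.0%. Every one of them had more than 1 genome placement, from 7 to 118. None overlapped Cho rep1. Near Gm16382, 13 members had 2 to 9 placements each and a median of 89.8% of shared words, and 4 overlapped Cho rep1. Near BC107364, 8 of 16 members had more than 1 placement, and 4 shared at least 50% of their words, with a median of 3.74%. The medians near Zfp184 and Abt1 were 23.0% and 15.5%, and 1 Zfp184 member and 0 Abt1 members had more than 1 placement. Near Fos, Cyr61, Socs3, Pard6b, Wnt7b and 6430527G18Rik the median share of words was 0% and no member had more than 1 placement.

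Another subset held GTTCGANNC on either strand, the B-box letters found in transfer RNA genes, whose promoter for RNA polymerase III lies inside the gene. They were in 150 members (0.803%, 0.680 to 0.941), against 0.244% of intronic peaks, 0.309% of intergenic peaks beyond 50 kb and 0.460% of all shared peaks. Of the 150, 46 lay on chromosome 13 between 21 and 24 Mb, and 45 of those 46 overlapped Cho rep1. Zfp184 was the nearest gene of 9 and Abt1 of 7. Members with these letters overlapped Cho rep1 in 76.0% (68.4 to 82.6), had a median WT pileup of 21 fragments against 11 for the rest, and had a median log2 ratio of 0.06 against 0.31.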
